A study of Papaver somniferum with 12 samples.

Results

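The opium poppy unigenes described here are those whose leaf level in the thebaine cultivar T stood apart from its level in every library of 3 other cultivars, G, Z and B2. They were selected on the measured values themselves. A unigene was taken as higher in T when its lowest T library was at least 1.5 times the highest of the 9 other libraries and its T mean was at least 2 RPKM. It was taken as lower in T when its highest T library was at most the lowest of the 9 others divided by 1.5 and the mean of those 9 was at least 2 RPKM. Unigenes that met the same rule for G, Z or B2 were dropped. The rule chose 88 of the 61856 unigenes in the table, or 0.142%. Of these, 22 were higher in T, which is 0.0356% of all unigenes, and 66 were lower in T, which is 0.107%. Because the rule set T against the other libraries, these counts and all T values below are a description and carry no test.

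Each of the cultivars T, G, Z and B2 was represented by 3 libraries of leaf RNA, which gave 12 libraries. All leaves were taken at the filling stage, after the flowers had fallen. All 4 cultivars are lines bred by the study's own institute, and the 3 libraries of a cultivar stand for separately taken samples. Each library goes by its cultivar and its labelled replicate number. A unigene is a non-redundant transcript assembled from PacBio long reads of the original cultivar B1, whose own leaf libraries were not analysed here. RPKM scales the reads of a unigene to its length and to how many reads mapped in that library. Leaf RNA is a mixture, so fewer cells of a type and less RNA per cell cannot be told apart. Likewise, since the reference came from B1, a lower RNA level in T and a T sequence that took up fewer reads cannot be told apart.

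Thebaine is a morphinan alkaloid made from benzylisoquinoline precursors that derive from tyrosine. In opium poppy, demethylation steps carry thebaine onward to codeine and morphine, so thebaine stands upstream of both. The alkaloids are stored in laticifers, the vessels that hold the latex.

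The identifiers of the 61856 unigenes were compared with 91581 annotated opium poppy genes and 0 matched, so the members are given by identifier, without name, function or sequence. The label of T as the thebaine cultivar could therefore not be checked against the genes of the pathway. The study did measure leaf alkaloids of these lines at the filling stage, and detected thebaine in T but not in G, Z or B2. An identifier holds a locus number and an isoform number, but each locus number occurred only once in the table. The table thus held 0 pairs of sister isoforms, and 0 of the 88 members had a sister to set beside it. Summed RPKM ranged from 993016 to 1061092 over the 12 libraries, and 4426 unigenes were at 0 in all of them. A pair of libraries stood apart from their own cultivar in a search for high values in 1 library alone, and touch the results below. The search covered unigenes that reached 1 RPKM in each of the 9 libraries of the other cultivars, with a mean of at least 2 RPKM there, and that stood at 10% of that mean or less in both remaining libraries of a cultivar. Of such unigenes, T replicate 2 stood at 1 RPKM or more and at 5 times both of its fellows or more in 27 of 50, and B2 replicate 3 in 168 of 240. The other 10 libraries did so in 0 to 2 unigenes each.

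**Figure D1:**
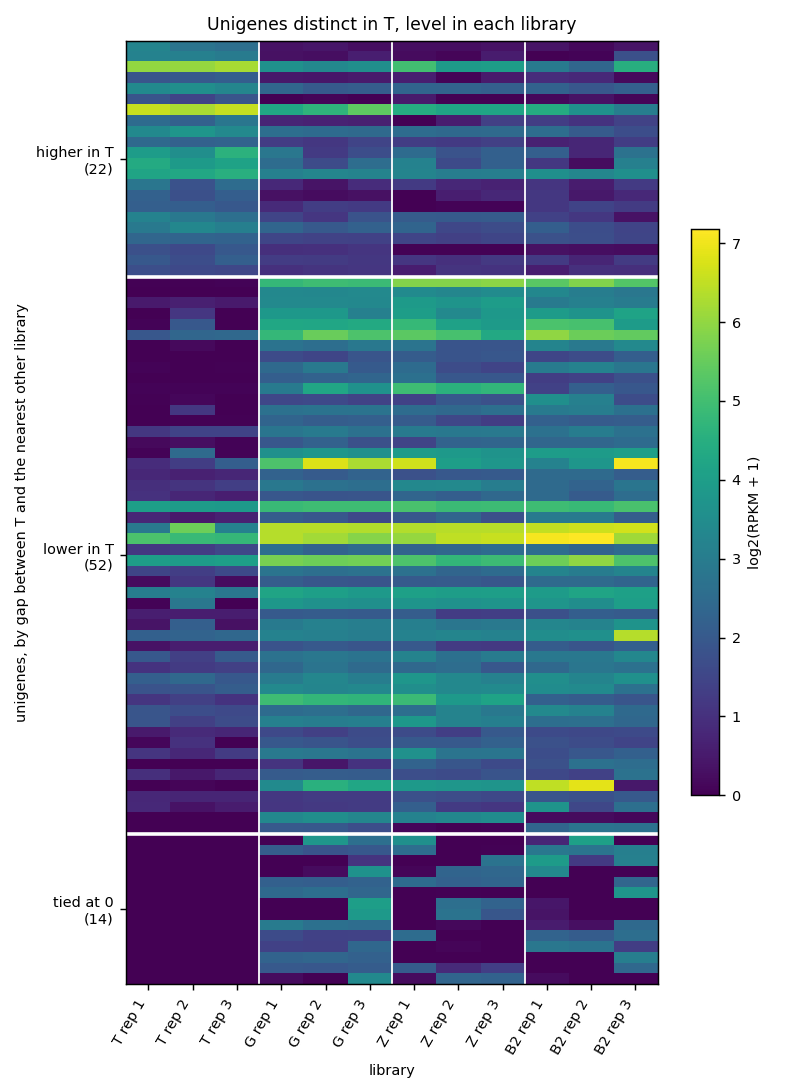
Level of the 88 unigenes distinct in T (1 line each) in each of the 12 libraries (columns, T at the left, then G, Z and B2), as log2(RPKM + 1) on the colour scale; lines are grouped into 22 unigenes higher in T, 52 lower in T and 14 tied at 0, and ordered within a group by the gap between T and the nearest other library. The T columns are brighter than every other column in the upper group and darker in the middle group, where some unigenes are still well above 0 in T. T replicate 2 differs from its fellows in a number of the lower unigenes, and the tied unigenes are at 0 in T and unevenly spread over the other libraries.

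The 22 unigenes higher in T were mostly of modest level. Their T means ranged from 2.06 to 87.1 RPKM with a median of 5.62, against means of the 9 other libraries from 0.107 to 19.8 RPKM with a median of 1.25. The T mean was 10 RPKM or more in 6 of them and under 5 RPKM in 11. All 3 T libraries were at 1 RPKM or more in each of the 22, as were all 9 other libraries in 7. The ratio of the T mean to the mean of the others ranged from 2.12 to 26.2 with a median of 4.37. The ratio of the lowest T library to the highest other library, which the rule used, had a median of 1.87 and reached 2 in 8 unigenes and 3 in 3. None of the 22 was below 0.1 RPKM in all 9 other libraries. By mean over the 12 libraries the median of the 22 lay at percentile 59.7 of the 57430 unigenes above 0. The cultivar nearest to T was B2 for 9 unigenes, G for 8 and Z for 5.

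PB.25244.3 had the highest ratio of means among the 22. It was at 8.5, 5.77 and 5.14 RPKM in T replicates 1, 2 and 3, against 0.27, 0.35 and 0.21 RPKM in G, 0.20, 0.20 and 0.28 RPKM in Z, and 0.30, 0.12 and 0.29 RPKM in B2. The 3 other cultivars were alike and low, and each T library was many times above each of them. The T mean was 26.2-fold the mean of the 9 others, and the lowest T library was 14.7-fold the highest other library. On the log2(RPKM + 1) scale, which understates the change of low unigenes, the mean difference was 2.56.

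PB.24456.1 was at 8.12, 7.74 and 6.93 RPKM in T, against 0.26, 0.20 and 0.52 RPKM in G, 0.16, 0.07 and 0.45 RPKM in Z, and 0, 0.05 and 2.38 RPKM in B2. The T libraries differed little among themselves (7.60 ± 0.608 RPKM, SD, n = 3), and the single other library above 1 RPKM was B2 replicate 3. The ratio of means was 16.7. PB.21715.1 was lower in T than these at 2.74, 3.05 and 3.42 RPKM, against 0.38, 0.34 and 0.42 RPKM in G, 0.53, 0.06 and 0.42 RPKM in Z, and 0.89, 0.78 and 0.14 RPKM in B2. All 9 other libraries were below 1 RPKM, and the ratio of means was 6.98.

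PB.60355.1 had the highest T level of the members higher in T. It was at 93.50, 76.45 and 91.50 RPKM in T, against 18.44, 24.19 and 41.13 RPKM in G, 20.91, 17.24 and 17.53 RPKM in Z, and 20.36, 11.33 and 7.22 RPKM in B2. G replicate 3 came nearest to T, and the ratio of means was 4.4. PB.57001.2 followed with 63.20, 64.71 and 74.06 RPKM in T, against 11.43, 9.27 and 10.78 RPKM in G, 31.27, 13.94 and 14.98 RPKM in Z, and 6.57, 4.14 and 21.78 RPKM in B2. Here Z replicate 1 and B2 replicate 3 were each above both of their fellows, yet neither reached T, and the ratio of means was 4.88.

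Some named members had a smaller ratio of means. PB.23716.3 was at 9.61, 10.74 and 8.87 RPKM in T, against 4.13, 3.09 and 3.37 RPKM in G, 4, 3.83 and 3.52 RPKM in Z, and 3.75, 2.84 and 3.48 RPKM in B2. The ratio of means was 2.74, with 9 other libraries that kept within a narrow band. PB.59427.1 was at 17.23, 18.60 and 21.86 RPKM in T, against 7.73, 8.89 and 8.16 RPKM in G, 8.49, 7.23 and 7.46 RPKM in Z, and 10.94, 8.77 and 10.83 RPKM in B2. Its ratio of means was 2.20, and B2 lay nearest to T.

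**Figure D2:**
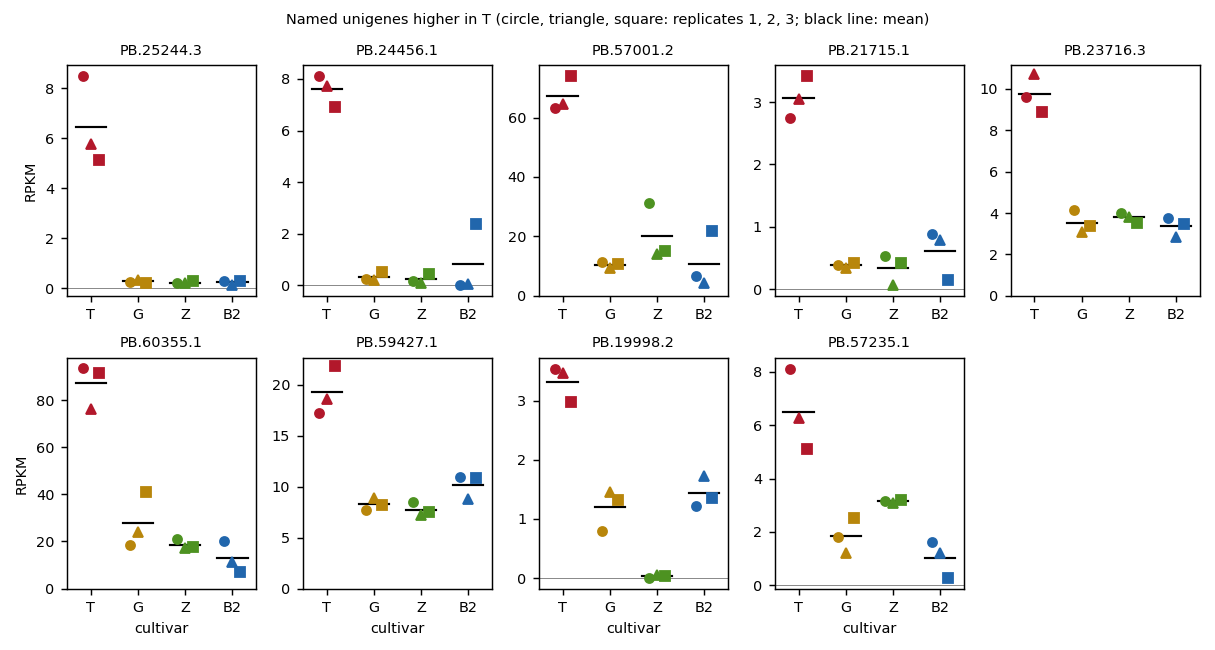
RPKM of the 9 named unigenes higher in T (1 panel each) by cultivar, with T at the left, then G, Z and B2; circles, triangles and squares are replicates 1, 2 and 3 and the black line is the mean of the 3 libraries. The T points lie above every other point in each panel, by 14.7-fold in PB.25244.3, while PB.19998.2 is near 0 in Z and PB.60355.1 has a single high G library.

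The 66 unigenes lower in T fell into 2 kinds. In 52, the T libraries lay below every other library. In the other 14, all 3 T libraries were listed at 0 and so was at least 1 other library, which meets the rule because 0 is not above 0 divided by 1.5. The 52 had means of the 9 other libraries from 2.05 to 89.8 RPKM with a median of 6.16, beside T means from 0 to 29.5 RPKM with a median of 0.688. By mean over the 12 libraries their median lay at percentile 73.5 of the unigenes above 0. T was listed at 0 in all 3 libraries in 6 of the 52, below 0.1 RPKM in all 3 in 12, and below 1 RPKM in all 3 in 23. It was at 1 RPKM or more in all 3 libraries in 17, so a part of these unigenes were lower in T while still present there. The 9 other libraries were all at 1 RPKM or more in 48 of the 52. Among the 46 with a T mean above 0, the mean of the others was 2.10-fold to 1440-fold the T mean, with a median of 5.65. The highest other cultivar was B2 for 31 unigenes, Z for 13 and G for 8, and the one nearest to T was G for 21, Z for 18 and B2 for 13.

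PB.20390.1 showed the widest gap of all 88. It was at 0.03, 0.02 and 0.04 RPKM in T, against 26.34, 30.07 and 28.83 RPKM in G, 55.96, 55.90 and 60.20 RPKM in Z, and 39.14, 55.88 and 37.00 RPKM in B2. T was close to 0 in a unigene that was well above the median level of the members in all 3 other cultivars. The log2(RPKM + 1) difference of T minus the 9 others was -5.36. The lowest other library was 658-fold the highest T library, a ratio that rests on T values of a few hundredths of an RPKM in a table rounded to 2 decimals.

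PB.17790.5 was listed at 0 in all 3 T libraries, against 9.28, 9.04 and 9.32 RPKM in G, 9.90, 8.88 and 10.05 RPKM in Z, and 8.95, 7.20 and 6.17 RPKM in B2. The other 9 libraries were even, and the difference was -3.27 on the log2(RPKM + 1) scale. PB.28141.1 was at 0.44, 0.54 and 0.44 RPKM in T, against 9.38, 9.36 and 9.15 RPKM in G, 14.02, 12.18 and 14.63 RPKM in Z, and 6.72, 7.71 and 6.91 RPKM in B2. Replicates of each cultivar were tight in this unigene, and the mean of the others was 21.1-fold the T mean.

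Among the abundant members, PB.51933.1 was at 34.04, 28.38 and 26.22 RPKM in T, against 82.13, 71.04 and 57.43 RPKM in G, 64.31, 89.63 and 94.14 RPKM in Z, and 135.34, 143.54 and 70.55 RPKM in B2. It was lower in T but far from absent, with the mean of the others 3.04-fold the T mean. PB.53005.1 was at 0.88, 1.45 and 3.44 RPKM in T, against 35.27, 110.79 and 76.07 RPKM in G, 99.31, 15.38 and 12.67 RPKM in Z, and 8.04, 12.52 and 132.98 RPKM in B2. All 9 others lay above T, but they spread widely within each cultivar, so its mean difference of -3.74 on the log2(RPKM + 1) scale rests on uneven libraries. Some further members, named after their values were seen, were lower in T at a clear level in both groups. PB.4135.22 was at 15.39, 14.25 and 13.34 RPKM in T, against a lowest value of 27.61, a median of 29.55 and a highest value of 33.83 RPKM in the 9 others. T stood at about the same fraction of each other cultivar in that unigene.

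**Figure D3:**
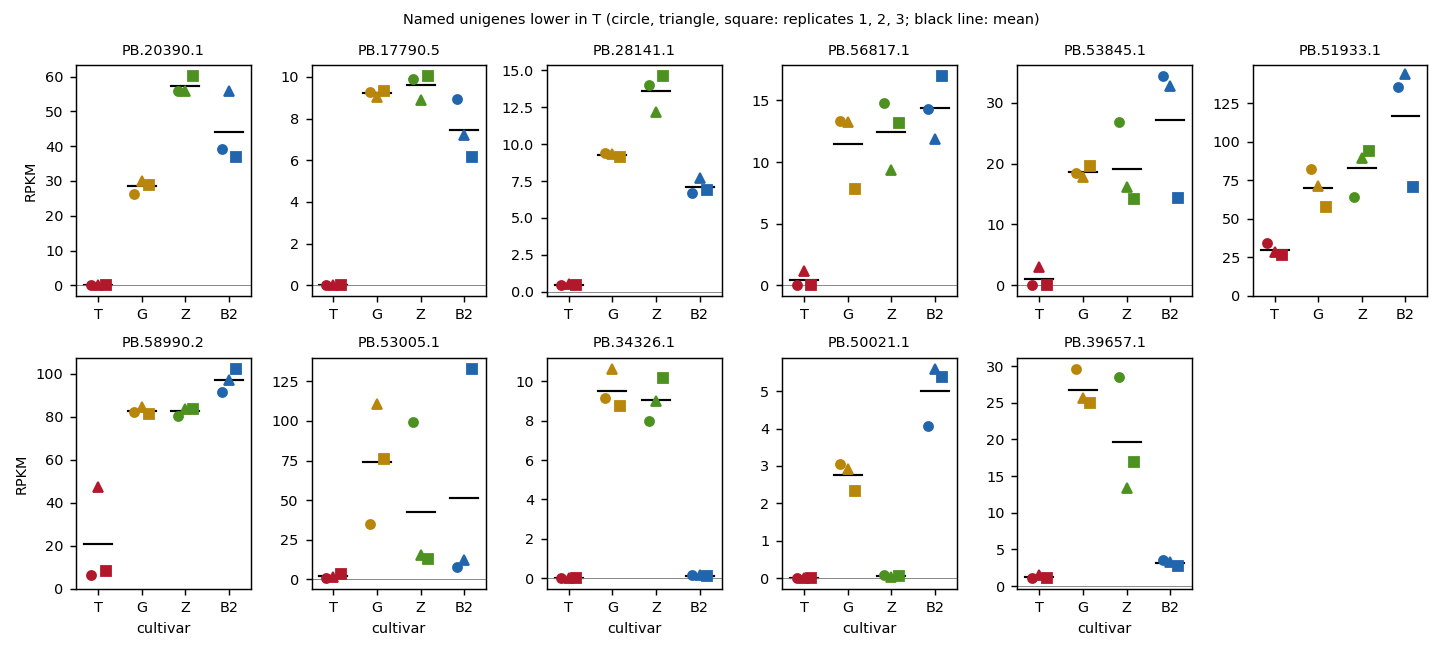
RPKM of the 11 named unigenes lower in T (1 panel each) by cultivar, with T at the left, then G, Z and B2; circles, triangles and squares are replicates 1, 2 and 3 and the black line is the mean of the 3 libraries. T lies below every other point in each panel, T replicate 2 is above its fellows in PB.56817.1, PB.53845.1 and PB.58990.2, and PB.34326.1 is near 0 in B2 as well as at 0 in T.

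In 9 of the 52 unigenes lower in T, T replicate 2 was at 1 RPKM or more and at least 5 times both other T libraries. T replicate 1 and T replicate 3 did so in 0 of the 52. In these 9, T replicate 2 stood at 9.33% to 54.3% of the mean of the 9 other libraries, with a median of 36.1%. The mean of T replicates 1 and 3 stood at 0% to 8.39%, with a median of 0.378%. The rule and the choice of these 9 bound both ranges, since no T library may come near the lowest of the 9 others, so the ranges are given as a description.

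PB.58990.2, the most abundant of the 9, was at 6.53, 47.48 and 8.13 RPKM in T, against 82.34, 84.35 and 81.20 RPKM in G, 80.12, 83.48 and 83.75 RPKM in Z, and 91.40, 97.22 and 102.42 RPKM in B2. The T mean of 20.7 ± 23.2 RPKM (SD, n = 3) had a spread larger than itself, whereas the other cultivars were even. PB.56817.1 was at 0, 1.19 and 0 RPKM in T, against 13.29, 13.27 and 7.80 RPKM in G, 14.80, 9.32 and 13.16 RPKM in Z, and 14.32, 11.83 and 16.99 RPKM in B2. PB.53845.1 was at 0.05, 2.94 and 0 RPKM in T, against 18.45, 17.84 and 19.63 RPKM in G, 26.79, 16.17 and 14.10 RPKM in Z, and 34.39, 32.68 and 14.34 RPKM in B2. In both, all T signal but a trace came from replicate 2. The remaining 6, named once their values had been seen, comprised PB.45861.1, PB.54104.1, PB.42120.1, PB.59199.1, PB.49674.1 and PB.52869.1. PB.52869.1 was at 0.04, 6.18 and 0 RPKM in T, against a lowest value of 10.54, a median of 12.10 and a highest value of 15.27 RPKM in the 9 others.

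The same library kept many unigenes outside the rule. Without T replicate 2, 147 unigenes were lower in T in place of 66, of which 126 lay below every other library and 21 were tied at 0, and 57 were higher in T in place of 22. Of the 74 that joined those below every other library, T replicate 2 lay within the range of the 9 others in 49, below all of them in 25 and above all of them in 0. It stood at 15.7% to 202% of their mean, with a median of 66.1%, and the mean of T replicates 1 and 3 had a median of 14.0%. In 13 of the 74, T replicates 1 and 3 were both below 0.1 RPKM. Among the 35 that joined those higher in T, T replicate 2 had a median of 55.9% of the mean of the other T libraries. PB.52477.3, picked after its values were seen, was at 0.66, 50.03 and 1.29 RPKM in T, against a lowest value of 22.43, a median of 58.18 and a highest value of 87.15 RPKM in the 9 others. Its T replicate 2 sat among the other cultivars and its T replicates 1 and 3 far below them. Why T replicate 2 differs was not tested.

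**Figure D4:**
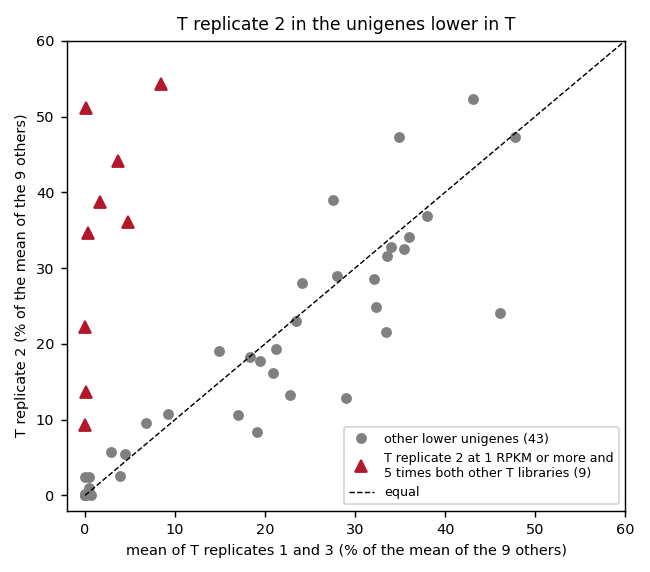
T replicate 2 (vertical axis) against the mean of T replicates 1 and 3 (horizontal axis), both as a percentage of the mean of the 9 other libraries, for the 52 unigenes below every other library in T; red triangles are the 9 in which T replicate 2 was at 1 RPKM or more and at least 5 times both other T libraries, grey circles the other 43, and the dashed line marks equal values. The triangles lie between 9.33% and 54.3% on the vertical axis and at 8.39% or less on the horizontal axis, far above the line.

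B2 replicate 3 held back unigenes in the other direction. Without it, 44 unigenes were higher in T in place of 22, with 25 added and 3 lost, and the count lower in T was again 66, with 9 added and 9 lost. With ties at 0 counted for no cultivar as well, a reading chosen after seeing the data, 47 were higher in T, and 27 of them were not among the 23 that all 12 libraries gave under that reading. In these 27 the T mean ranged from 2.13 to 115 RPKM with a median of 6.41. B2 replicate 3 stood at 59.9% to 224% of the T mean with a median of 101%, and was at or above the lowest T library in 18. The mean of B2 replicates 1 and 2 stood at 0% to 47.2% with a median of 23.0%. These shares follow in part from how the 27 were chosen, and are given as a description. In 6 of the 27, the other 8 libraries were all below 0.1 RPKM.

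PB.50879.1, picked with the next unigene after their values were seen, was at 38.24, 40.05 and 41.07 RPKM in T, against 6.39, 6.2 and 7.44 RPKM in G, 7.08, 8.06 and 7.47 RPKM in Z, and 7.73, 5.26 and 41.47 RPKM in B2. PB.3183.11 was at 9.58, 10.84 and 10.92 RPKM in T, against 0, 0.02 and 0.02 RPKM in G, 0 RPKM in each Z library, and 0, 0 and 8.43 RPKM in B2. In both, B2 replicate 3 was the single library outside T at the T level. Z replicate 1 acted in the same direction: without it, 37 unigenes were higher in T, and in the 15 added it stood at a median of 82.1% of the T mean. Why these libraries came near T was not tested.

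**Figure D5:**
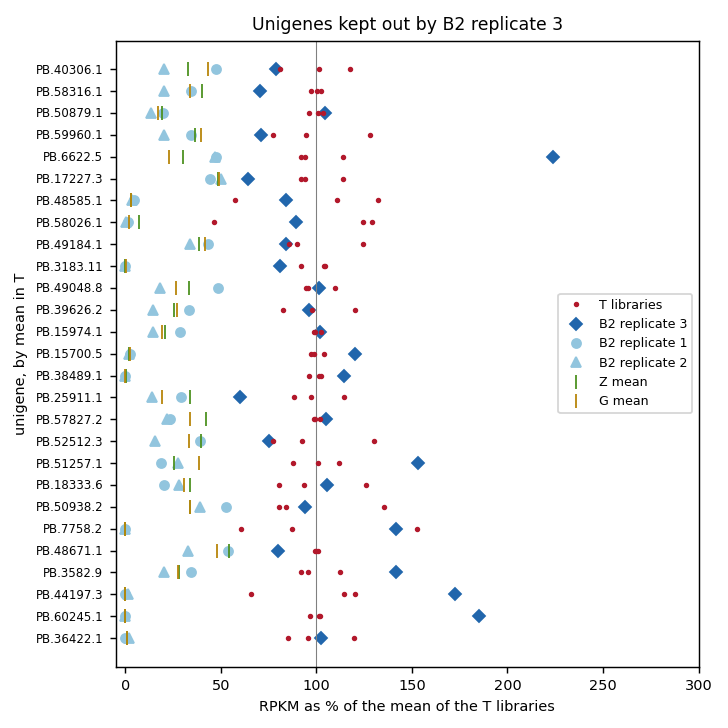
Level as a percentage of the mean of the 3 T libraries (horizontal axis) for the 27 unigenes that joined those higher in T without B2 replicate 3, with ties at 0 not counted (vertical axis, highest T mean at the top); red dots are the T libraries, dark blue diamonds B2 replicate 3, pale blue circles and triangles B2 replicates 1 and 2, and green and brown bars the Z and G means. The diamonds lie between 59.9% and 224% and the other B2 libraries, averaged, at 47.2% or less.

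The 14 unigenes tied at 0 were low. Their mean over the 9 other libraries ranged from 2.00 to 5.02 RPKM with a median of 2.62, beside 0 in every T library. In none was another cultivar wholly at 0, but the drop fixed this in advance, since that cultivar would meet the same rule. In these 14, between 1 and 5 of the 9 other libraries were also at 0. Some of them shared a pattern: PB.61390.1 was at 0 RPKM in T, against 0, 0 and 15.32 RPKM in G, 0, 5.14 and 3.87 RPKM in Z, and 0.36, 0 and 0 RPKM in B2. PB.59150.1, PB.61202.1 and PB.61284.1 likewise had their highest G value in replicate 3 and their higher Z values in replicates 2 and 3. They were less alike in B2 replicate 1, where PB.59150.1 was at 9.32 RPKM, PB.61202.1 at 0.31 RPKM and PB.61284.1 at 0.16 RPKM. PB.31514.2 and PB.7795.2 were instead near 0 in Z and in B2 replicates 1 and 2, and were present in B2 replicate 3 and in all 3 G libraries. These 14, described by identifier after their values were seen, were above T in some of the 9 other libraries and level with it at 0 in the rest.

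The 1.5-fold limit cut through a continuous range of values. Just inside it among the higher unigenes, PB.25825.2 was at 2.31, 2.01 and 1.86 RPKM in T, against 1.01, 1.13 and 1.2 RPKM in G, 0.50, 1.12 and 1.07 RPKM in Z, and 0.49, 1.00 and 0.95 RPKM in B2, a nearest ratio of 1.55. PB.57550.2 had a nearest ratio of 1.56. Just outside, PB.25911.1 had 1.48 and PB.25942.1 had 1.47. Among the lower unigenes, PB.43177.1 at 1.53 and PB.49429.1 at 1.57 were just inside, and PB.58260.4 at 1.47 and PB.55322.1 at 1.44 were just outside. In PB.58260.4 T was at 8.82, 7.12 and 9.64 RPKM, against a lowest value of 14.14 RPKM in Z replicate 2. Between ratios of 1.4 and 1.5 there were 8 unigenes on the higher side and 8 on the lower, and between 1.5 and 1.6 there were 6 members higher and 4 lower.

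The drop of unigenes that also met the rule for another cultivar mattered mainly on the lower side. Before it, 23 unigenes were higher in T and 147 lower. It removed 1 higher unigene and 81 lower ones, of which 73 were tied at 0 and 8 lay below every other library. The higher one, PB.47445.1, was at 45.65, 38.70 and 32.22 RPKM in T, against 0 RPKM in each G library, 0, 0 and 0.03 RPKM in Z, and 7.78, 14.51 and 6.78 RPKM in B2. It was left out because its zeros in G met the rule for G through a tie with Z. The same rule chose 88 unigenes for T, against 40 for G, 86 for Z and 1149 for B2. Of the 1149 in B2, 803 were higher there, 342 lay below every other library and 4 were tied at 0.

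Whether the members also differed among G, Z and B2 was tested without T, by limma on log2(RPKM + 1) over the 9 libraries of those cultivars. Of the 88 members, 82 passed the filter on low values, which asked for 1 RPKM or more in 3 or more of the 9. The 6 that did not were all higher in T and low elsewhere, so the counts below concern 16 of the 22 higher unigenes, all 52 lower ones and all 14 tied. The rule bounds the 9 values on 1 side, and its drop removed unigenes in which G, Z or B2 stood apart. All 32367 unigenes tested were not chosen in this way. The counts are given beside theirs, but the shares are not strictly comparable and are not read as particular to the members. The p-values of single members below carry the same limit. Over the 3 cultivars at once, the F-test called 18 of the 82 members at an adjusted p below 0.05, against 18.5% of all unigenes. The 18 were 1 of the higher, 15 of the lower and 2 of the tied unigenes.

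Between pairs, a call also required a difference of at least 1 on the log2(RPKM + 1) scale. Z and B2 differed in 11 of the 82 members, 5 higher and 6 lower in Z, against 7.9% of all unigenes. G and B2 differed in 4, 3 higher and 1 lower in G, against 5.77%. G and Z differed in 3, all higher in G, against 0.816%. Over all unigenes tested, 955 were called higher and 1603 lower in Z than in B2. In G, 671 were called higher and 1197 lower than in B2, and 211 higher and 53 lower than in Z. Without B2 replicate 3 the F-test called 34 of 81 members, against 25.3% of all unigenes in that fit. Also without it, the number between G and B2 was 14 (7.15% of all unigenes) and that between G and Z was 6 (1.4%). The number between G and Z was 1 without G replicate 2 (0.564% of all unigenes). The number between Z and B2 was 7 without B2 replicate 1 (5.4% of all unigenes) and 7 without Z replicate 2 (7.11%). The median difference of Z minus B2 was 0.10 in the higher, -0.18 in the lower and -0.72 in the tied unigenes, beside -0.06 in all unigenes tested. That of G minus B2 was 0.19, -0.16 and 1.15 in the same order, beside -0.03 in all, and that of G minus Z was 0.02, -0.05 and 0.61, beside 0.02 in all.

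In the 3 lower unigenes with the smallest F-test p, 1 of the cultivars G, Z and B2 was far below the others. PB.34326.1 was listed at 0 in all 3 T libraries, against 9.17, 10.65 and 8.74 RPKM in G, 8, 9.01 and 10.20 RPKM in Z, and 0.15, 0.15 and 0.09 RPKM in B2. T and B2 were both close to 0, and G and Z were alike. Z exceeded B2 by 3.15 ± 0.115 (SE) on the log2(RPKM + 1) scale (limma, adjusted p = 4.14e-07), and G exceeded B2 by 3.21 (limma, adjusted p = 4.53e-07). G minus Z was 0.06 (limma, adjusted p = 0.927).

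PB.50021.1 showed a different arrangement. It was listed at 0 in all 3 T libraries, against 3.04, 2.91 and 2.32 RPKM in G, 0.09, 0.03 and 0.06 RPKM in Z, and 4.06, 5.6 and 5.37 RPKM in B2. Here Z was the cultivar close to T. Z minus B2 was -2.49 ± 0.131 (SE) on the log2(RPKM + 1) scale (limma, adjusted p = 3.55e-06), and G exceeded Z by 1.82 (limma, adjusted p = 0.000172). Both calls held under each alternative in which the unigene was tested.

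PB.39657.1 was at 1.14, 1.57 and 1.09 RPKM in T, against 29.66, 25.71 and 24.95 RPKM in G, 28.58, 13.40 and 16.88 RPKM in Z, and 3.57, 3.27 and 2.69 RPKM in B2. B2 was low, next above T, and G and Z were high. Z exceeded B2 by 2.24 ± 0.237 (SE) on the log2(RPKM + 1) scale (limma, adjusted p = 0.000285) and G exceeded B2 by 2.74 (limma, adjusted p = 0.000112). PB.30881.1, named after its values were seen, was at 0.06, 0.04 and 0.06 RPKM in T, against 6.61, 17.86 and 11.40 RPKM in G, 29.92, 22.84 and 25.37 RPKM in Z, and 1.6, 3.50 and 2.88 RPKM in B2. Its levels stood in the order T, B2, G and Z, and Z exceeded B2 by 2.91 ± 0.323 (SE) on the log2(RPKM + 1) scale (limma, adjusted p = 0.000375). Its difference of G minus Z, at -1.15, did not pass (limma, adjusted p = 0.182).

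The widest-gap unigene PB.20390.1 also differed among the other cultivars (limma F-test, adjusted p = 0.00593). Its G level was below its Z level by 0.99 on the log2(RPKM + 1) scale (limma, adjusted p = 0.0152), just short of the size limit. PB.28141.1 differed among the 3 as well (limma F-test, adjusted p = 0.0013).

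Among the 16 unigenes higher in T that passed the filter, the F-test called PB.19998.2 alone. With no filter, all 22 were tested and the F-test called 2, beside 11.3% of all unigenes in that fit. PB.19998.2 was at 3.54, 3.46 and 2.97 RPKM in T, against 0.80, 1.46 and 1.32 RPKM in G, 0, 0.06 and 0.04 RPKM in Z, and 1.22, 1.73 and 1.36 RPKM in B2. Z was near 0 and G and B2 lay between Z and T. Z minus B2 was -1.23 ± 0.14 (SE) on the log2(RPKM + 1) scale (limma, adjusted p = 0.000445), and G exceeded Z by 1.07 (limma, adjusted p = 0.00681), a call that was lost without G replicate 2. PB.57235.1 was at 8.12, 6.29 and 5.12 RPKM in T, against 1.80, 1.2 and 2.54 RPKM in G, 3.15, 3.07 and 3.21 RPKM in Z, and 1.61, 1.22 and 0.27 RPKM in B2. Z exceeded B2 by 1.09 ± 0.267 (SE) on the log2(RPKM + 1) scale (limma, adjusted p = 0.0211), although the F-test did not pass (limma, adjusted p = 0.0516). The Z and B2 call was lost without B2 replicate 3 and without any 1 of the Z replicates, and its adjusted p reached 0.0656 over the alternatives. For PB.59427.1 the F-test did not pass (limma, adjusted p = 0.113), which does not show that G, Z and B2 were equal.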

How the data were processed

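RNA sequencing data from 12 leaf libraries of 4 opium poppy cultivars were used. According to the study, the authors filtered their paired-end reads on quality, mapped those kept with HISAT2 (2.05) to unigenes built from PacBio reads of B1, and estimated expression with RSEM. The authors deposited RPKM values rounded to 2 decimals. The study's methods text calls the unit fragment-based, its records and the labels RPKM. RSEM divides reads among similar unigenes, so near-identical ones are uncertain. The study lists the clean bases of each library, which were fewest in T replicate 1 among the 12, but not the mapped reads. Spacing of low values did not reveal the mapped depth of any library. The reads behind each value are therefore unknown and no counting interval is given.

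Members were selected by the stated rule on RPKM. The members, lists and tests were chosen with earlier results of these data known. Differences among G, Z and B2 were tested with limma 3.58.1 (R 4.3.3) on log2(RPKM + 1), with a mean-variance trend and Benjamini-Hochberg adjustment over 32367 unigenes. DESeq, the tool of the study, was not used here, since it needs counts. The test was checked on simulated data with independent noise in each library. Those simulated data held no library that stood apart from its fellows as B2 replicate 3 does, so the check does not cover that case. Tables used pandas 2.3.3 and figures matplotlib 3.10.9 under Python 3.11.15. P-values set a difference between cultivars against the spread between the libraries of a cultivar, as limma moderates that spread over all unigenes tested.

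Unigenes were named by rule in each direction: the 5 widest gaps in log2(RPKM + 1), the 3 highest means, the 3 smallest F-test p-values, and the 2 nearest the limit on each side. Parts of the rule on sister isoforms found nothing to name. Alternatives changed the fold limit, level floor, pseudocount, filter, scaling, samples in the fit, replicate block and each library in turn. Handling of ties at 0 was added after seeing the data.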

Additional observations from a re-analysis of the deposited data

How the results depend on the processing

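Across 105 alternative values of 6 counts, 81 stayed within 1.5 times. Higher in T fell to 8 at a fold limit of 2 and to 11 at a level floor of 5 RPKM. It was 47 with ties at 0 not counted in any cultivar and without B2 replicate 3, chosen after seeing the data. With the ties alone not counted, 23 were higher and 52 lower. Lower in T was 101 at a floor of 1 RPKM, 32 at 5 RPKM and 147 when unigenes meeting the rule for another cultivar were kept. Leaving out 1 library gave 21 to 57 higher (T replicate 2, B2 replicate 3 and Z replicate 1 above 1.5 times) and 64 to 147 lower (T replicate 2).

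Leaving out 1 library gave 12 to 34 members differing among G, Z and B2, beside 9.85% to 25.3% of all unigenes, where 34 came without B2 replicate 3. It gave 7 to 14 between Z and B2 (5.4% to 8.78% of all), 4 to 14 between G and B2 (3.34% to 7.15%), and 1 to 6 between G and Z (0.524% to 1.4%), where 6 came without B2 replicate 3 and 1 without G replicate 2. A filter at 5 RPKM, which tests fewer members, gave 9 of 39 among the 3 cultivars (19.7% of all unigenes). It gave 7 between Z and B2 (8.73%) and 0 between G and Z (0.828%). Between G and Z, 6 of the 39 had an unadjusted limma p below 0.05, and 1 of these also reached the size limit. No share over all unigenes was taken for them, so they are not read as a result about the members. Adjusted p alone gave 20 of 82 between Z and B2 (21.0% of all unigenes), 12 between G and B2 (15.1%) and 5 between G and Z (1.61%). A fit on all 12 libraries gave 7 between G and B2 (6.1% of all), and a pseudocount of 0.1 gave 5 between G and Z (1.26%). The cause of these shifts was not tested except where stated.

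With a replicate block the counts were 17 among the 3 cultivars (16.5% of all unigenes) and 11 between Z and B2 (7.89%). They were 4 between G and B2 (5.74%) and 2 between G and Z (0.708%). Deviations of same-numbered libraries correlated at -0.102 to 0.189 over 9 pairs, 4 of them above 0.1. Those of libraries with unlike numbers correlated at -0.227 to 0.116. These weak correlations do not decide whether libraries of the same number were handled together. Of 336 values for 24 named unigenes, 33 moved and 0 changed sign. The rule set every T library of these unigenes apart from all 9 others, so no sign could change under these alternatives. The unknown number of mapped reads limits all low values. With no sisters in the table, the count with an opposite sister could only be 0.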

Other observations

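Over all unigenes, single libraries differed in how often they held a transcript that both fellows lacked. B2 replicate 3 was at 1 RPKM or more in 515 unigenes in which both other B2 libraries were below 0.1 RPKM. T replicate 2 did so in 85 and G replicate 3 in 75, and the other 9 libraries in 8 to 29. In the reverse case, below 0.1 RPKM where both fellows were at 1 RPKM or more, B2 replicate 3 had 191 unigenes. Z replicate 1 had 90, T replicate 2 had 71 and the other 9 libraries had 10 to 44. Of the 27 unigenes in which T replicate 2 stood apart in the way described for the members, 18 were not members, and in 13 of the 27 it was at 50% or more of the mean of the 9 other libraries. PB.60473.1, picked after its values were seen, was at 2.5, 121.38 and 3.71 RPKM in T, against 114.95, 119.27 and 117.25 RPKM in G, 4.36, 1.54 and 6.24 RPKM in Z, and 68.16, 82.77 and 55.48 RPKM in B2. In that unigene T replicate 2 was near G, and T replicates 1 and 3 near Z.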
